A study of Mus musculus with 8 samples.

Results

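The angiopoietin and TIE receptor axis was followed through 8 genes: the TIE receptors Tek and Tie1, the phosphatases Ptprb and Ptpn11, the angiopoietins Angpt1, Angpt2 and Angpt4, and the matrix protein gene Svep1. They were picked by symbol, through their Ensembl identifiers without version numbers, and make up 8 of the 31610 genes in the count table. All 8 passed the filter on low counts. The series holds RNA from endothelial cells that were sorted from mouse lung by flow cytometry, with 4 libraries from C57BL/6J mice given an nANGPTL4 AAV and 4 from C57BL/6J mice given a control AAV. An AAV is an adeno-associated virus used to carry a gene into tissue, and nANGPTL4 is the N-terminal fragment of ANGPTL4, a secreted inhibitor of lipoprotein lipase. The serotype, promoter, dose, interval after injection, age and sex are not given in those labels. The titles of the nANGPTL4 AAV libraries read "NT Treated" without a key, and the treatment field decided that group, while the other titles read "Control".

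TIE2, the product of Tek, is the receptor tyrosine kinase of endothelial cells that keeps vessels quiescent and tight. Angiopoietin-1 from perivascular cells and platelets activates it, TIE2 then signals through PI3K and AKT, and AKT keeps the transcription factor FOXO1 out of the nucleus. Angiopoietin-2 is made by the endothelial cells themselves, is a FOXO1 target stored in Weibel-Palade bodies, and acts as a weak agonist or an antagonist depending on context. TIE1 has no angiopoietin ligand of its own and modulates TIE2, SVEP1 is a matrix ligand of TIE1, and VE-PTP, the product of Ptprb, removes phosphate from TIE2.

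None of the 8 genes was called between nANGPTL4 AAV and control AAV at an adjusted p under 0.05 in edgeR's quasi-likelihood test, against 0.138% of all 18874 genes tested. At an unadjusted p under 0.05 there were 2, Tek and Ptprb, against 17.6% of all genes, and both were lower in nANGPTL4 AAV. DESeq2 called 1 of the 8, Ptprb, and 6.14% of its genes, while limma-voom called 0. What the libraries do show in detail is a steep order of levels. Transcripts of the receptors and VE-PTP were among the most abundant in these cells, Angpt2 was intermediate, and Angpt1, Svep1 and Angpt4 were scarce.

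The promoters of Tek and Tie1 are shown because these genes encode the receptors of the axis. A further reason is that Fli1, an ETS factor that acts on endothelial promoters, was called lower in nANGPTL4 AAV (values further on). That call was lost in every fit that left out a library. Neither receptor gene was called, and a link from Fli1 to them was not tested. ETS factors bind around the core GGAA, and each GGAA or its reverse complement TTCC is in capitals. Sequences are from RefSeq on GRCm38.p6, given 5′ to 3′ on the strand of the gene, from 250 bases before to 50 after the start. The Tek window is chr4:94739039-94739338 on the plus strand and the Tie1 window is chr4:118489800-118490099 on the minus strand. The gene model used further on for Tie1 begins at 118490061, inside its window. Much of the Tie1 stretch before the RefSeq start thus lies within that gene model.
Tek: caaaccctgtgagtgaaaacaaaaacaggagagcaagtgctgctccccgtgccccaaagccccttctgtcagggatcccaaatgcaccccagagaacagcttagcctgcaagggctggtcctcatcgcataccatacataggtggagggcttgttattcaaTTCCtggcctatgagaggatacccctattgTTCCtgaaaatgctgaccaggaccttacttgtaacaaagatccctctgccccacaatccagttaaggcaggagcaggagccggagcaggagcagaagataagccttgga
Tie1: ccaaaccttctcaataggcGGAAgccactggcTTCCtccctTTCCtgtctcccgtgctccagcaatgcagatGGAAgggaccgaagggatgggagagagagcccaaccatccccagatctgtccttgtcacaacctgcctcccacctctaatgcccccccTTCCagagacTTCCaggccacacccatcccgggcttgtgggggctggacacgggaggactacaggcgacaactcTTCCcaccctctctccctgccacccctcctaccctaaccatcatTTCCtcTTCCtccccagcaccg
The Tek window held 2 such cores and the Tie1 window 9, counting both strands. At least 2 were present in 84.7% and at least 9 in 1.63% of 27025 promoter windows of the same length, whose median was 3. The longer word AGGAAG, which contains the core, was searched on both strands and was found in 35.1% of windows, with 2 matches in Tie1 and 0 in Tek. At least 2 were present in 8.47% of windows, and the Angpt4 and Svep1 windows also held 2. The Ptpn11 window held 0. GGAA cores numbered 5 in Angpt4, 6 in Svep1 and 2 in Ptpn11. Another longer word, GGAAGT, was found in 24.1% of windows, with 1 match in Tie1 and 0 in Tek. The forkhead word GTAAACA, searched likewise, was present in 3.55% of windows and in neither receptor promoter. These are matches of letters, and no binding was measured.

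Total counts per library ranged from 83183122 to 114337333. Endothelial markers Pecam1 and Cdh5, an adhesion molecule and the junctional cadherin, averaged 2647 ± 72.4 CPM (Pecam1) and 1153 ± 28.4 CPM (Cdh5) in nANGPTL4 AAV, and 2734 ± 121 CPM (Pecam1) and 1194 ± 47.0 CPM (Cdh5) in control AAV (SD, n = 4 each). The 10 pan-endothelial markers summed to 16780 to 17516 CPM in nANGPTL4 AAV and 17529 to 18021 CPM in control AAV, without overlap, as was true of 10.9% of single genes. CPM divides a count by the TMM-scaled library size. Summed markers of other cells were lower by far. The 14 mural genes summed to 45.0 to 60.2 CPM in nANGPTL4 AAV and 39.1 to 60.8 CPM in control AAV, and the 13 fibroblast and mesothelial genes to 89.8 to 235 CPM in nANGPTL4 AAV and 67.7 to 166 CPM in control AAV. For the 12 lung epithelial genes the sums were 483 to 596 CPM in nANGPTL4 AAV and 345 to 505 CPM in control AAV, and for the 13 platelet and erythroid genes 93.8 to 106 CPM in nANGPTL4 AAV and 57.6 to 110 CPM in control AAV. The 10 myeloid genes had 23.6 to 44.9 CPM in nANGPTL4 AAV and 13.8 to 36.4 CPM in control AAV, and the 10 lymphocyte genes 3.14 to 6.32 CPM in nANGPTL4 AAV and 2.27 to 2.72 CPM in control AAV. The 10 lymphatic endothelial genes summed to 969 to 1053 CPM in nANGPTL4 AAV and 946 to 1390 CPM in control AAV. Most of this was Lyve1, at means of 713 CPM in nANGPTL4 AAV and 854 CPM in control AAV. Flt4 followed, at 225 and 248 CPM in that order, within mean sums of 1001 and 1173 CPM. In the same order Prox1 averaged 2.62 and 3.01 CPM, Pdpn 1.08 and 0.918 CPM, and Ccl21a 4.36 and 4.93 CPM. The sum therefore mostly reflects Lyve1 and Flt4. Of the epithelial markers 10 of 12 were positive in log2 fold change and 1 was called, the airway secretory gene Scgb3a2 (log2 fold change 1.30, edgeR adjusted p = 0.0369). All 13 platelet and erythroid markers and the 6 lymphocyte markers tested were positive, and 0 of either list were called. Positive values were also found for 10 of the 12 fibroblast and mesothelial markers tested and 6 of the 14 mural markers. The part of RNA from these cells in the results was not tested. No marker of these lists was at 0 in all 8 libraries.

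Tek, on chromosome 4 at 94739289 to 94874976 of mm10, had 1701, 1695, 1633 and 1697 CPM in nANGPTL4 AAV libraries 1 to 4, against 1994, 1848, 1711 and 1788 CPM in control AAV libraries 1 to 4. Every nANGPTL4 AAV library was below every control AAV library, the nearest pair being 1701 and 1711 CPM. Means were 1682 ± 32.2 CPM in nANGPTL4 AAV and 1835 ± 120 CPM in control AAV (SD, n = 4 each). This is a log2 fold change of -0.13 with an SE of 0.05, and the adjusted p in the quasi-likelihood test of edgeR was 0.249. Its 95% interval runs from -0.24 to -0.01 in log2, or from 0.845 to 0.993 as a fold. With CPM by library size alone the groups overlapped and the log2 fold change was -0.08. Leaving out control AAV library 1 gave -0.08.

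Ptprb, on chromosome 10 at 116275523 to 116389535 of mm10, encodes the endothelial phosphatase that restrains TIE2 and is itself held at junctions with VE-cadherin. It had 3712, 3708, 3633 and 3901 CPM in nANGPTL4 AAV libraries 1 to 4, against 4525, 4177, 3982 and 4200 CPM in control AAV libraries 1 to 4. The groups did not overlap. Means were 3738 ± 114 CPM in nANGPTL4 AAV and 4221 ± 225 CPM in control AAV (SD, n = 4 each). This is a log2 fold change of -0.18 with an SE of 0.05 (adjusted p = 0.124, same edgeR test). DESeq2 put the adjusted p at 0.0284, and over all 17 alternatives it lay between that value and 0.276. The 95% interval of the fold was 0.819 to 0.958. With library size alone the groups overlapped, at a log2 fold change of -0.13.

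Non-overlap with nANGPTL4 AAV on the low side was thus found for 2 of the 8 genes, Tek and Ptprb, and for 6.99% of all genes tested. Abundant genes as a class had slightly negative values with TMM scaling: the median log2 fold change was -0.05 among the 696 genes with a mean log2 CPM over 8, and 69.1% of them were negative. Set against the summed pan-endothelial markers, which share these libraries, Tek came to 93.3 to 101 per 1000 CPM of markers in nANGPTL4 AAV and 97.6 to 112 in control AAV, and Ptprb to 207 to 232 in nANGPTL4 AAV and 227 to 254 in control AAV. On that scale, chosen after the values were seen, both genes overlapped between the groups. The overlap came from nANGPTL4 AAV library 4 alone (Tek 101, Ptprb 232), which had the lowest marker sum, 16780 CPM. Tek averaged 97.2 ± 3.23 in nANGPTL4 AAV and 103 ± 6.32 in control AAV (SD, n = 4 each). Ptprb averaged 216 ± 11.2 in nANGPTL4 AAV and 237 ± 11.5 in control AAV (SD, n = 4 each). A bulk count cannot tell fewer cells of a type from less RNA per cell. The 10 venous markers summed to 2576 to 2949 CPM in nANGPTL4 AAV and 3259 to 3513 CPM in control AAV, also without overlap. All 10 had a negative log2 fold change, with a median of -0.26, and 0 were called. Vwf alone averaged 1589 CPM in nANGPTL4 AAV and 1921 CPM in control AAV, within mean sums of 2778 and 3334 CPM. The part of these markers in the values of Tek and Ptprb was not tested.

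Tie1, on chromosome 4 at 118471191 to 118490061 of mm10, had 2204, 2213, 2112 and 1987 CPM in nANGPTL4 AAV libraries 1 to 4, against 2135, 2366, 2138 and 2166 CPM in control AAV libraries 1 to 4. The groups overlapped, the lowest value being an nANGPTL4 AAV library and the highest a control AAV library. The log2 fold change was -0.05 (SE 0.05, adjusted p = 0.686, same edgeR test), and the 95% interval of the fold for this co-receptor was 0.89 to 1.05. Without control AAV library 2 the log2 fold change was -0.0011.

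Ptpn11 encodes SHP2, a widely expressed phosphatase that is recruited to activated receptors, TIE2 among them, and lies on chromosome 5 at 121130533 to 121191397 of mm10. It had 59.0, 62.9, 53.3 and 62.4 CPM in nANGPTL4 AAV libraries 1 to 4, against 64.1, 60.0, 64.0 and 60.4 CPM in control AAV libraries 1 to 4. The groups overlapped, with nANGPTL4 AAV library 3 the lowest of all. The log2 fold change was -0.06 (SE 0.06, adjusted p = 0.594, same edgeR test), and without that library it was -0.0048.

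**Figure D1:**
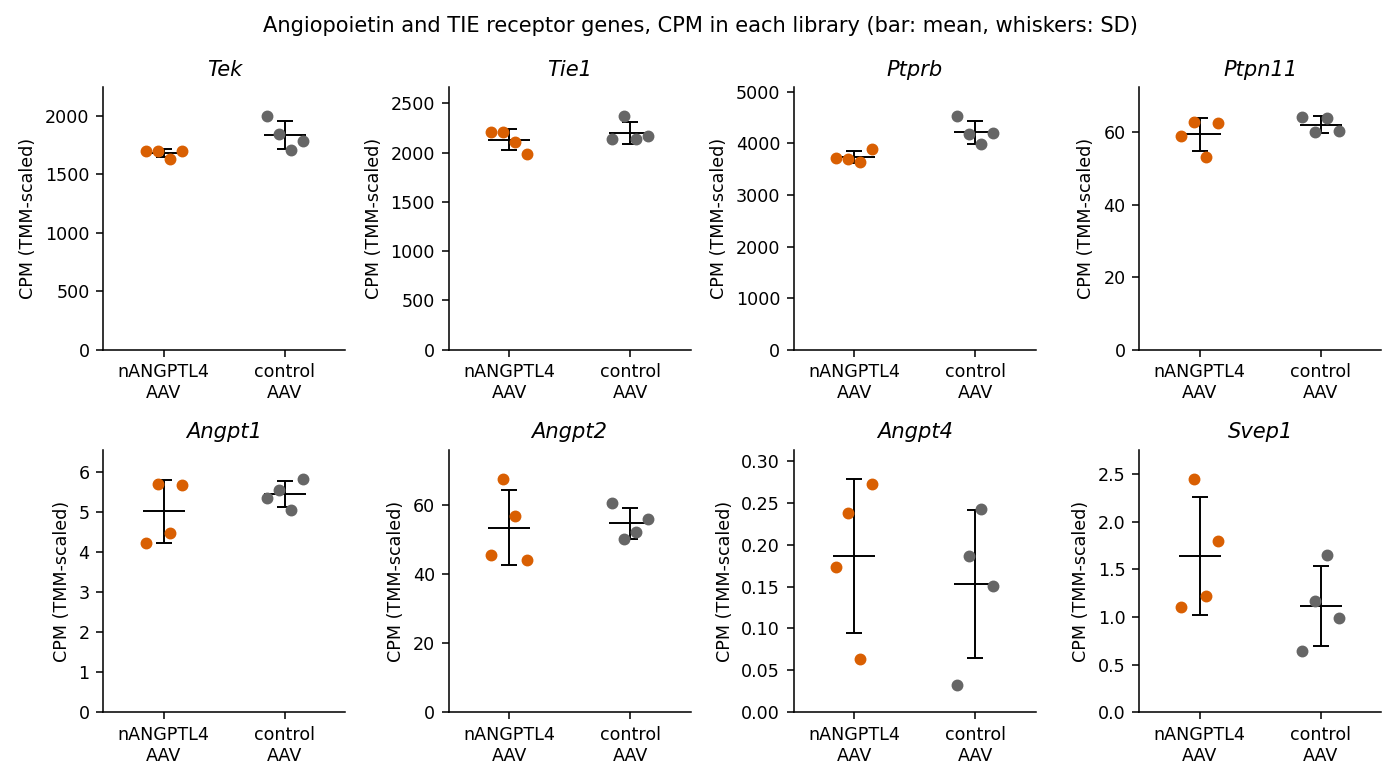
CPM after TMM scaling (vertical axis, linear from 0) of the 8 genes in each nANGPTL4 AAV and control AAV library; points are libraries 1 to 4 from left to right, bars the mean and whiskers the SD. Tek and Ptprb are the only panels in which the groups do not overlap (1633 to 1701 against 1711 to 1994 CPM for Tek), and Angpt2 is more scattered in nANGPTL4 AAV than in control AAV.

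Among the ligands Angpt2 was the abundant one. Angpt2, on chromosome 8 at 18690263 to 18741562 of mm10, had 45.4, 67.4, 56.7 and 44.0 CPM in nANGPTL4 AAV libraries 1 to 4, against 60.4, 50.1, 52.0 and 55.7 CPM in control AAV libraries 1 to 4. The nANGPTL4 AAV group held both the highest and the lowest values, and its libraries spread on both sides of the control AAV libraries. Means were nearly equal, at 53.4 ± 11.0 CPM in nANGPTL4 AAV and 54.6 ± 4.53 CPM in control AAV (SD, n = 4 each). The difference was -0.03 in log2 with an SE of 0.12 (adjusted p = 0.922, same edgeR test), and the 95% interval of the fold ran from 0.812 to 1.18. The sign was not stable: it was positive with upper quartile scaling, with library size alone, and without nANGPTL4 AAV library 1, nANGPTL4 AAV library 4 or control AAV library 1.

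Replicates of Angpt2 were more scattered than those of the receptors. The pooled SD of its log2 CPM within groups was 0.22, which exceeded that of 97.3% of the 2250 genes within 0.5 log2 CPM of its mean, whose median was 0.07. By group the SD was 0.29 in nANGPTL4 AAV and 0.12 in control AAV, and the difference between these SDs was not tested. Tek, Tie1 and Ptprb had pooled SDs of 0.07, 0.07 and 0.06, near or below the median for genes of like abundance. Ptpn11, which is about as abundant as Angpt2, had 0.09. The scarce genes Angpt4 and Svep1 were also more variable than 97.5% and 95.5% of genes of like abundance.

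Angpt1 encodes the activating ligand and lies on chromosome 15 at 42424723 to 42676977 of mm10, where a gene on the other strand covers 14.2% of its exonic bases, so its counts are less certain. It had 4.23, 5.71, 4.48 and 5.69 CPM in nANGPTL4 AAV libraries 1 to 4, against 5.36, 5.56, 5.06 and 5.83 CPM in control AAV libraries 1 to 4, from 391 to 628 counts per library. Libraries 1 and 3 of nANGPTL4 AAV were the lowest, and the groups overlapped. The log2 fold change was -0.12 (SE 0.12, adjusted p = 0.643, same edgeR test). It ranged from -0.18 to -0.03 as single libraries were left out. Mural cells are a known source of this ligand; the mural marker sum was 48.9, 60.2, 45.0 and 55.5 CPM in nANGPTL4 AAV libraries 1 to 4 and 50.9, 39.1, 60.8 and 57.0 CPM in control AAV libraries 1 to 4. In nANGPTL4 AAV libraries 2 and 4 were the higher in both measures. In control AAV library 4 was high in both, while library 3 had the highest mural marker sum and the lowest Angpt1 value. The part of mural RNA was not tested.

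Angpt4 encodes the least studied TIE2 ligand and was at the edge of detection. It had 16, 24, 7 and 28 counts in nANGPTL4 AAV libraries 1 to 4 and 3, 21, 20 and 15 counts in control AAV libraries 1 to 4, or 0.187 ± 0.0916 CPM in nANGPTL4 AAV and 0.153 ± 0.0883 CPM in control AAV (SD, n = 4 each). Both groups spanned a wide range and overlapped. The log2 fold change was 0.28 (adjusted p = 0.82, same edgeR test), and its 95% interval, from 0.549 to 2.69 as a fold, spans large differences either way. Without control AAV library 1 the log2 fold change was -0.03, and without another single library it lay between 0.04 and 0.59. Its pooled SD within groups, 0.92 in log2 CPM, exceeded that of 97.5% of 2235 genes of like abundance.

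Svep1, on chromosome 4 at 58042442 to 58206859 of mm10, encodes a large secreted protein of mesenchymal cells that binds TIE1; a noncoding gene on the other strand overlaps 13.9% of its exonic bases, so its counts are less certain. It had 1.10, 2.45, 1.22 and 1.80 CPM in nANGPTL4 AAV libraries 1 to 4, against 0.648, 1.17, 1.66 and 0.986 CPM in control AAV libraries 1 to 4. The groups overlapped, although the 2 highest values were in nANGPTL4 AAV and the 2 lowest in control AAV. The log2 fold change was 0.56 (SE 0.31, adjusted p = 0.367, same edgeR test), with a 95% interval from -0.11 to 1.24. Without nANGPTL4 AAV library 2 it was 0.32.

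Fibroblast and mesothelial markers varied with Svep1 across most libraries, though not all. Their sum was 99.0, 235, 89.8 and 165 CPM in nANGPTL4 AAV libraries 1 to 4 and 67.7, 151, 166 and 84.4 CPM in control AAV libraries 1 to 4. Library 2 of nANGPTL4 AAV was highest and library 1 of control AAV lowest in both measures. Control AAV library 2 had the larger sum but less Svep1 (1.17 CPM) than nANGPTL4 AAV library 3 (1.22 CPM). Per 100 CPM of these markers, a scale chosen after the values were seen, Svep1 stood at 1.15 ± 0.142 CPM in nANGPTL4 AAV and 0.973 ± 0.163 CPM in control AAV (SD, n = 4 each), and the groups overlapped. The lowest nANGPTL4 AAV value was 1.04, and only control AAV library 4, at 1.17, exceeded it among the controls. The part of fibroblast RNA in the Svep1 counts was not tested.

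**Figure D2:**
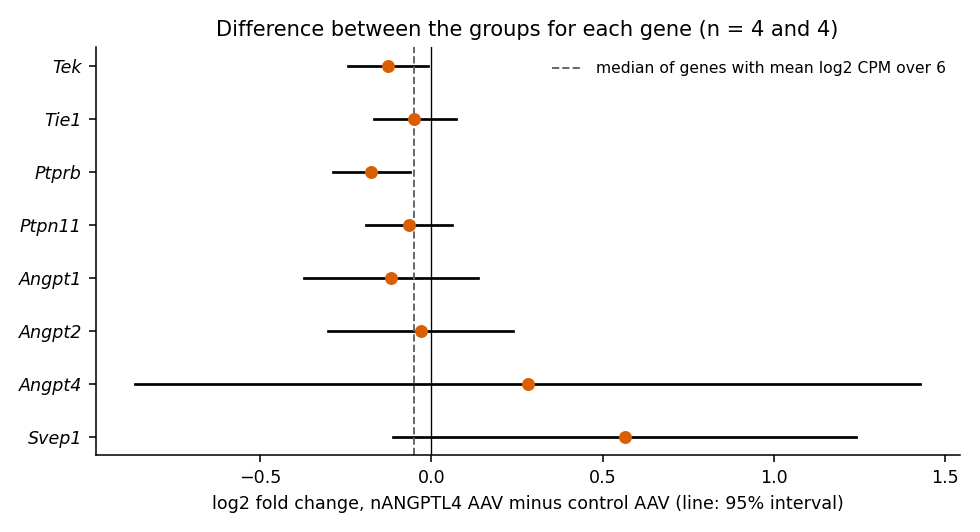
Log2 fold change of each gene, nANGPTL4 AAV minus control AAV (horizontal axis), with its 95% interval from the edgeR fit; the dashed line is the median of genes with a mean log2 CPM over 6 (-0.05). The intervals of Tek and Ptprb lie below 0, and those of Angpt4 (-0.86 to 1.43) and Svep1 are the widest.

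Levels of different genes were compared per kilobase of merged exon, which takes no account of isoforms. The 8-library means were 440 CPM per kb for Tie1, 373 for Tek, 298 for Ptprb, 14.6 for Angpt2, 8.11 for Ptpn11, 1.01 for Angpt1, 0.0856 for Svep1 and 0.0727 for Angpt4. Tie1, Tek and Ptprb ranked 66, 81 and 105 among 18819 genes with a length, while Angpt2 ranked 3238 and Angpt1 11177. The ranges of Tie1 and Tek over the 8 libraries overlapped, but Tie1 was above Tek within each of the 8. Every step from Tek down to Svep1 was free of overlap, and Svep1 and Angpt4 did not differ beyond their spread, Svep1 being higher in 3 of 8 libraries. Counts of Tek, Tie1 and Ptprb together took 0.743 to 0.779% of all counts in nANGPTL4 AAV libraries and 0.778 to 0.838% in control AAV libraries.

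**Figure D3:**
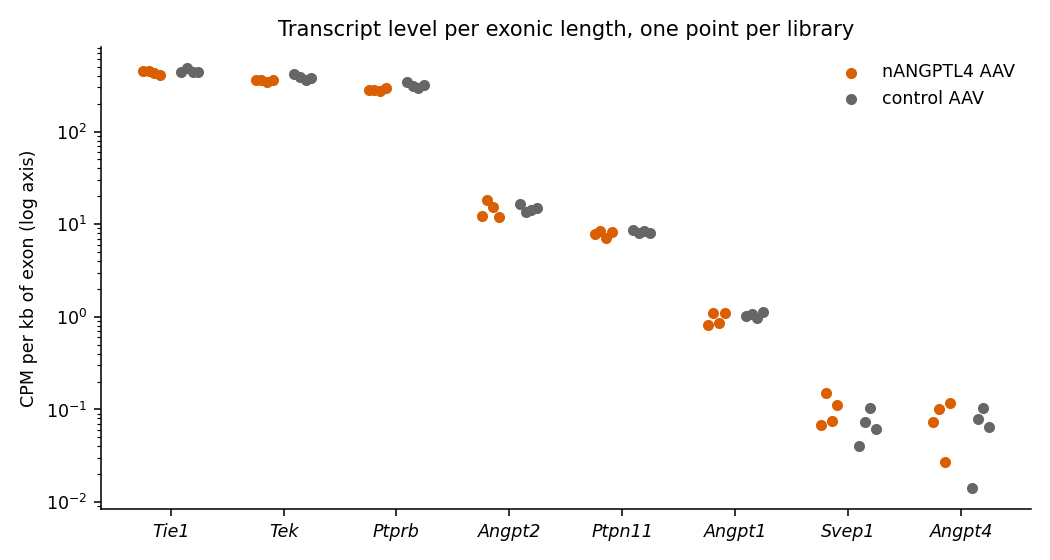
CPM per kilobase of merged exon (vertical axis, log scale) for the 8 genes in order of their mean level, with each nANGPTL4 AAV and control AAV library as a point. Tie1, Tek and Ptprb lie near 440, 373 and 298, Angpt2 and Ptpn11 more than a decade lower, and Svep1 and Angpt4 at the bottom.

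Ratios between members do not depend on library scaling and are given per kilobase as a description. The Angpt2 to Tek ratio was 0.0341, 0.0508, 0.0444 and 0.0331 in nANGPTL4 AAV libraries 1 to 4 and 0.0387, 0.0346, 0.0388 and 0.0398 in control AAV libraries 1 to 4. Angpt2 exceeded Angpt1 by 10.9 to 17.9 times in nANGPTL4 AAV and by 12.7 to 15.9 times in control AAV. The ratio of Tie1 to Tek was 1.12 to 1.25 in nANGPTL4 AAV and 1.03 to 1.23 in control AAV. Ptprb to Tek was 0.771 to 0.812 in nANGPTL4 AAV and 0.799 to 0.83 in control AAV. All 4 ratios overlapped between the groups.

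**Figure D4:**
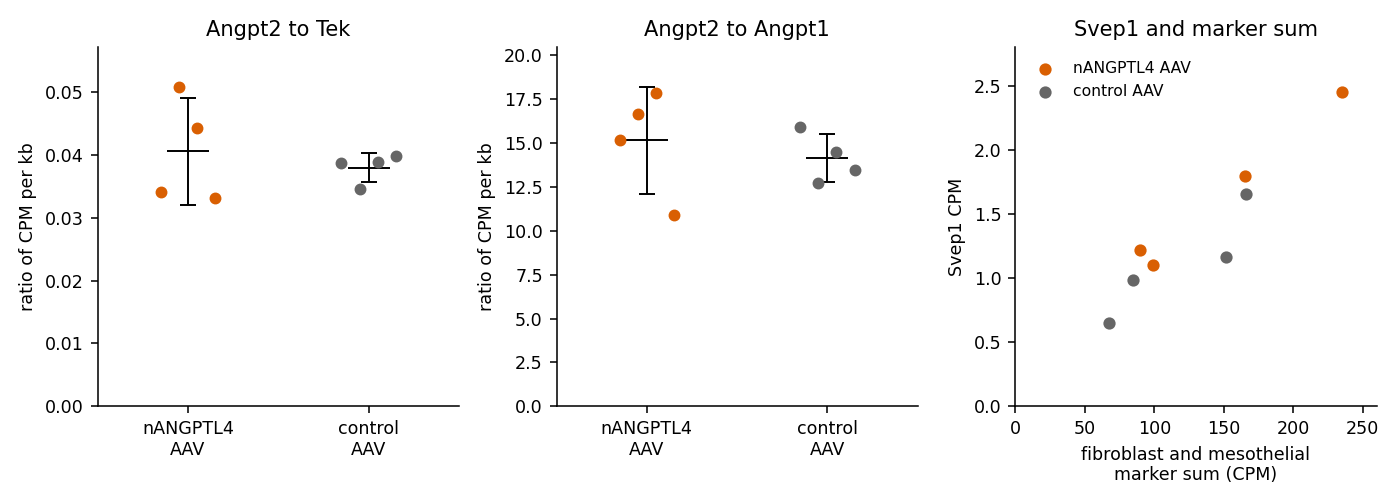
Left and middle, ratios of CPM per kb for Angpt2 to Tek and Angpt2 to Angpt1 (vertical axes from 0), with libraries as points, bars for means and whiskers for SD; right, Svep1 CPM against the summed CPM of fibroblast and mesothelial markers. The Angpt2 to Tek ratio spans 0.0331 to 0.0508 in nANGPTL4 AAV against 0.0346 to 0.0398 in control AAV, and the library with the most marker RNA (235 CPM) has the most Svep1 (2.45 CPM).

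The profile of Tek over the 8 libraries was close to that of Ptprb. After each gene was centred on its own mean log2 CPM, the root mean square difference between Tek and Ptprb was 0.037, against a median of 0.11 between Tek and 9240 other genes with a mean log2 CPM over 3. Tie1 differed from Tek by 0.092 and Angpt2 by 0.20. The genes nearest to Tek by this measure were Sgk3, a kinase of the AKT and SGK group, at 0.024 and Zfp629 at 0.032. Nearest to Ptprb were Smad5, a BMP signal transducer, at 0.02 and B3galnt2 at 0.021. For Tie1 they were Nucb1 and Cap1, at 0.013 and 0.016. Angpt2 had no such close neighbour: Homez at 0.08 and Ubox5 at 0.091 came nearest. The measure grows with a gene's own scatter, and about its own mean Angpt2 had a root mean square of 0.19, against 0.086 for Tek. The median difference from the other genes was 0.20 for Angpt2. The points share libraries and scaling, and the measure is a description.

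Beyond the members, 106 genes around the pathway were read from the same fit in 5 lists, and 2 of the 106 (1.89%) were called, both transcription factors and both lower in nANGPTL4 AAV, against 0.138% of all genes tested. The lists were chosen with earlier results of these data known, so nothing is read from that share. Fli1 is an ETS factor of endothelial and blood cells. It averaged 119 ± 8.28 CPM in nANGPTL4 AAV and 172 ± 14.9 CPM in control AAV (SD, n = 4 each). Its log2 fold change was -0.53 with an SE of 0.07, at an edgeR adjusted p of 0.0369. Hif1a, the oxygen-regulated factor that acts on Angpt2 among many genes, averaged 65.5 ± 2.43 CPM in nANGPTL4 AAV and 80.8 ± 2.42 CPM in control AAV, at a log2 fold change of -0.30 with an SE of 0.04 (edgeR adjusted p = 0.0369). Of the exon bases of Hif1a, 5.6% also belong to a gene on the other strand and 2.51% to Gm49321, a protein-coding gene on the same strand, so its counts are less certain. When single libraries were left out, the log2 fold changes stayed between -0.58 and -0.47 for Fli1 and between -0.32 and -0.27 for Hif1a. The calls were lost in each of these fits (adjusted p from 0.05 to 0.162), which called 1 to 2 genes in all. Neither was called with upper quartile scaling, library size alone or the stricter low-count filter, and the call for Hif1a was also lost with the replicate block (adjusted p = 0.161). In the list of 21 factors acting on Tek, Tie1 or Angpt2, 16 values were negative with a median of -0.10. Over all genes tested the median was 0.01, but it was -0.05, with 69.5% negative, for genes whose mean log2 CPM exceeded 6. With library size alone 13 of the 21 were negative and the median was -0.05.

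Of the 30 adaptors and relay kinases downstream of TIE2, 0 were called by edgeR, 6 had an unadjusted p under 0.05 against 17.6% of all genes, DESeq2 called 3 against 6.14%, and limma-voom called 0. The median log2 fold change was -0.02 and turned to 0.02 with library size alone. The smallest p values belonged to Rasa1, a RAS GTPase activating protein, at -0.23 (adjusted p = 0.074), and the adaptor Nck1 at -0.22 (adjusted p = 0.11, both by the edgeR test). In nANGPTL4 AAV the 17 FOXO1-responsive genes had 10 positive and 7 negative values with a median of 0.13. Of these 17, 0 were called by edgeR, 4 had an unadjusted p under 0.05 against 17.6% of all genes, DESeq2 called 2 against 6.14%, and limma-voom called 0. Fbxo32, a ubiquitin ligase subunit, was at 0.50 (adjusted p = 0.106) and the growth arrest gene Gadd45a at 0.25 (adjusted p = 0.121, both by the edgeR test). A noncoding gene overlaps 19.1% of the exonic bases of Gadd45a. With library size alone 15 of the 17 were positive and the median was 0.17. Signs depended on abundance: with TMM scaling 47.8% of all genes tested were negative, but 69.5% of those over 6 in mean log2 CPM. Levels in this list ran from 2.12 CPM (Sesn3) to 3312 CPM (Klf2) in nANGPTL4 AAV. FOXO1 activity was not tested.

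The 13 co-receptors, sheddases and VE-PTP partners had 11 negative values and a median of -0.06. With library size alone 10 were negative and the median was -0.02, and 69.5% of genes with a mean log2 CPM over 6 were negative with TMM scaling. None was called by edgeR or limma-voom, 5 had an unadjusted p under 0.05 against 17.6% of all genes, and DESeq2 called 3 against 6.14%. Itga5, the integrin subunit that pairs with beta1 as a fibronectin receptor and binds angiopoietins, averaged 228 ± 7.44 CPM in nANGPTL4 AAV and 292 ± 29.6 CPM in control AAV, the log2 fold change being -0.36 with an SE of 0.07 (edgeR adjusted p = 0.0642). The robust edgeR fit called it, with an adjusted p of 0.0473. Adam10, a membrane protease, was at -0.26 (adjusted p = 0.0691, edgeR test). Among 25 genes for the storage and release of Weibel-Palade bodies, the organelle that holds angiopoietin-2, edgeR called 0, 7 had an unadjusted p under 0.05 against 17.6% of all genes, DESeq2 called 3 against 6.14%, and limma-voom called 0. Vwf, which builds that organelle, averaged 1589 ± 129 CPM in nANGPTL4 AAV and 1921 ± 67.0 CPM in control AAV (log2 fold change -0.27, adjusted p = 0.0783, edgeR test), and Hps6, a subunit of an organelle biogenesis complex, was at -0.19 (adjusted p = 0.115, same test). That list's median was -0.03, and 0.01 with library size alone. Vwf was also the largest part of the venous marker sum given above.

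**Figure D5:**
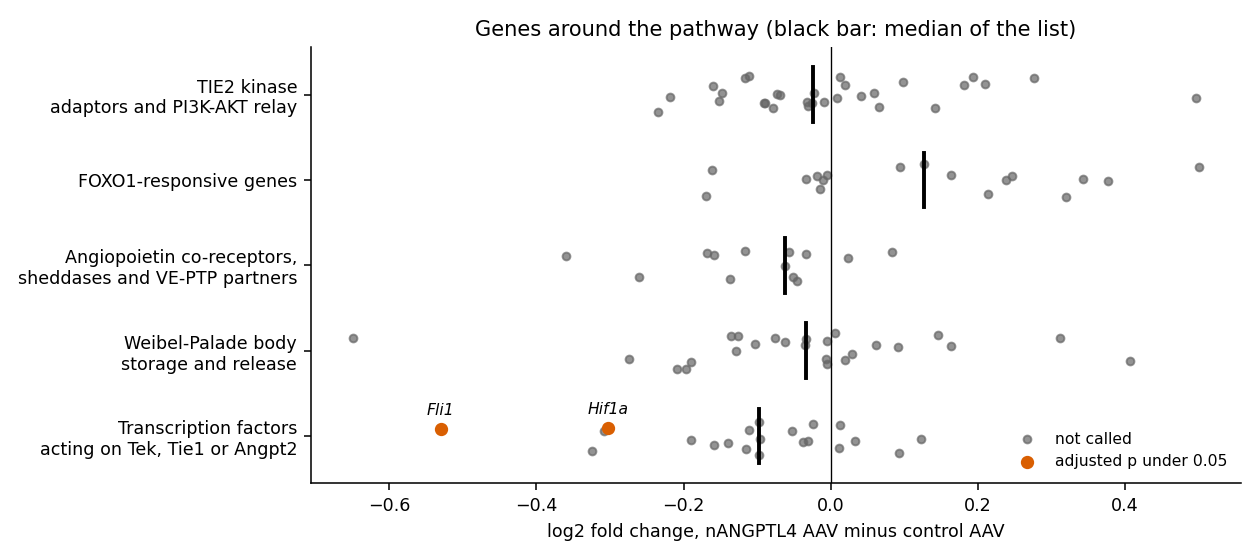
Log2 fold change, nANGPTL4 AAV minus control AAV (horizontal axis), of every gene in the 5 lists around the pathway; black bars are list medians and orange points the 2 genes with an adjusted p under 0.05. Fli1 (-0.53) and Hif1a (-0.30) lie in the transcription factor list, and the FOXO1-responsive list has its median at 0.13.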

How the data were processed

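Endothelial cells were sorted from lungs, and RNA taken with a low-amount isolation kit was turned into cDNA and libraries by low-input kits, per the labels' protocols. The authors deposited raw read counts per gene, as whole numbers that were not normalized. Reads were placed on mm10, per the submitters' processing notes. Aligner, counter, strand setting and annotation are not given in the sources used here. Of 31610 identifiers, 31491 matched a symbol, and coordinates and exons came from GENCODE M21 on the same build.

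Counts were tested with edgeR 4.0.16 in R 4.3.3: filterByExpr with a minimum count of 10, TMM scaling, the quasi-likelihood F test with group as the only term, and Benjamini-Hochberg adjustment over 18874 genes. Calls needed an adjusted p under 0.05. Fold changes set nANGPTL4 AAV over control AAV, and 95% intervals use the SE and degrees of freedom of that fit. Log2 CPM used a prior count of 2. DESeq2 1.42.0, limma 3.58.1 (voom), other scalings and filters, a replicate block and leaving out each library were alternatives. The fits were tested on simulated counts, with 50 changed genes at each fold. The edgeR fit recovered 42% of 1.25-fold, 86% of 1.5-fold and 100% of 2-fold changes, and called 16 unchanged genes. DESeq2 recovered 60%, 88% and 100%, and called 55 unchanged genes. Changes smaller than 1.25-fold were not simulated. The changed genes were drawn from above a floor in mean log2 CPM that Angpt4 (-2.58) and Svep1 (0.38) did not reach. The rates therefore do not cover those genes. The simulation held 200 changed genes, while 26 genes were called in the data. More calls make the adjustment less strict, so the rates may be too high for the data. The design text calls the 4 replicates of a group independent, and replicates differed by more than counting error in every pair.

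Members and lists were chosen with earlier results of these data known. All members were named; of each list, called genes were named, otherwise the 2 with the smallest p. For each member with a mean log2 CPM over 3, the 2 genes with the nearest profile were named; those of Ptpn11 are not reported here. Promoter windows were matched by symbol for 5 of the 8 members; Angpt1, Angpt2 and Ptprb were not matched.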

Additional observations from a re-analysis of the deposited data

Results flagged for a closer look

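In 6 of 42 groups of 4 libraries examined, a library stood apart from the other 3 by Dixon's criterion, which chance alone meets in about 1 of 20 groups. Tek in nANGPTL4 AAV library 3 was 1633 CPM, with the others at 1695 to 1701 CPM. Tie1 in control AAV library 2 was 2366 CPM, with the others at 2135 to 2166 CPM. The Tie1 to Tek ratio in nANGPTL4 AAV library 4 was 1.12, with the others at 1.24 to 1.25. The pan-endothelial marker sum in nANGPTL4 AAV library 4 was 16780 CPM, with the others at 17442 to 17516 CPM. The venous marker sum in control AAV library 2 was 3513 CPM, with the others at 3259 to 3281 CPM. The lymphocyte marker sum in nANGPTL4 AAV library 2 was 6.32 CPM, with the others at 3.14 to 3.28 CPM.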

How the results depend on the processing

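The count of called genes, 26 with the edgeR fit, was 4 with upper quartile scaling, 4 with library size only, 1 with the stricter low-count filter, 59 with the robust edgeR fit and 956 with DESeq2, and 1 to 2 when a library was left out. Of the 8 members, DESeq2 called 1 and every other alternative 0, leaving out each library included (0 to 0). Of the genes in the pathway lists, 2 by the edgeR fit, the count was 0 with upper quartile scaling, library size only and the stricter filter, 13 with DESeq2, and 0 in every fit that left out a library. The replicate numbers did not pair the libraries: deviations from the group means correlated across genes at 0.155, 0.144, -0.248 and -0.376 for numbers 1 to 4. With the replicate block 6 genes, 0 members and 1 pathway gene were called. The log2 fold change of Angpt2 turned positive with upper quartile scaling (0.0108) and library size only (0.0138), and ranged from -0.15 to 0.0513 as libraries were left out, with 0.0485 without nANGPTL4 AAV library 1 and 0.029 without control AAV library 1. That of Angpt4 was -0.0342 without control AAV library 1, and it ranged up to 0.587. Tek, Tie1, Angpt1, Ptprb, Svep1 and Ptpn11 kept their sign in all 17 alternatives. Over genes above 3 in mean log2 CPM, TMM gave a median of -0.03 and library size only 0.01. The TMM factors split by group, from 1.008 to 1.023 in nANGPTL4 AAV and from 0.969 to 0.994 in control AAV. Library sizes are multiplied by them, so TMM moved log2 fold changes down relative to library size only. Why the factors split, and the cause of the other shifts, was not tested. Counts were few for Angpt4 (3 to 28) and Svep1 (59 to 248), and both were also more variable than most genes of like abundance.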
